A study of Mus musculus with 12 samples.

Results

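Fatty acid binding proteins were followed as transcripts in mouse brain tissue next to an experimental intracerebral hemorrhage (ICH), to see whether other family members differed when Fabp4 was deleted from microglia. The members were the rows of the deposited gene table whose symbol was Fabp3, Fabp4, Fabp5, Fabp7 or Pmp2, which is 5 of 21956 genes. RNA sequencing covered 12 mice in 4 groups of 3. Sham-Fabp4flox/flox and ICH-Fabp4flox/flox mice carried the floxed Fabp4 allele, and Sham-Fabp4CKO and ICH-Fabp4CKO mice carried that allele together with a tamoxifen-inducible Cre recombinase (CreERT2) driven by Tmem119, a gene expressed in microglia. The conditional knockout was induced by 7 daily tamoxifen injections of 150 mg/kg, and surgery followed 14 days after the last of them. Whether the flox/flox mice received tamoxifen, which exons were deleted, and the age of the mice are not given in the sources used here. ICH was induced by injecting collagenase, an enzyme that breaks down the vessel wall, into the right striatum, and sham mice had the same operation without the enzyme. In ICH mice, tissue was taken 48 h after surgery from the rim of the hematoma. Sham tissue is described as taken by the same procedure, without a time of its own. Each library is whole tissue and holds RNA of many cell types. A lower level in such a sample can come from fewer cells of a type or from less RNA per cell, and these cannot be told apart. The labels number the samples of a group without saying that each is a separate animal; they are called mice here, and p-values measure the spread between these samples only, which may be partly technical.

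Fatty acid binding proteins are small cytosolic proteins that hold a long-chain fatty acid inside a barrel of beta strands and carry it between membranes, lipid droplets, mitochondria and the nucleus. Each member is known from certain cells: Fabp3 from heart, muscle and neurons, Fabp4 from adipocytes, macrophages and capillary endothelium, Fabp5 from skin, macrophages and several brain cells, Fabp7 from radial glia, astrocytes and oligodendrocyte precursors, and Pmp2, also called Fabp8, from the myelin of Schwann cells. Fabp4 and Fabp5 are often present in the same macrophages, and adipocytes of mice with a germline loss of Fabp4 are known for raised Fabp5.

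The members are paralogs, and a stretch of coding sequence is shown here to illustrate how far they are alike. It covers 90 bases from coding base 40 (46 in Fabp5) in the GENCODE coding transcript of each gene (GRCm38), written 5′ to 3′, with the 46 bases that are the same in all 5 members in capitals.
Fabp3: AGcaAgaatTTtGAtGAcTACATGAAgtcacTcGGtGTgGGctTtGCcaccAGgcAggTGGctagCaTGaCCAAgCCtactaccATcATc
Fabp4: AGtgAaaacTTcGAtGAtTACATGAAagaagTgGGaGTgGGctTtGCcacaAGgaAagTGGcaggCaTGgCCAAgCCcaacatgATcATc
Fabp5: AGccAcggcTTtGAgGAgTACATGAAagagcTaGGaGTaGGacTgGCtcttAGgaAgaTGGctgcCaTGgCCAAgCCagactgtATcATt
Fabp7: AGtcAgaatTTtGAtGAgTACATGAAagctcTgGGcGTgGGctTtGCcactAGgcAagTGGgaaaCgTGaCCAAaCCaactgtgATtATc
Pmp2: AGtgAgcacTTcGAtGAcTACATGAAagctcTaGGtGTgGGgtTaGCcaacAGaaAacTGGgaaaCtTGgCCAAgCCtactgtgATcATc

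Within this window Fabp7 and Pmp2 each matched Fabp4 at 68 of 90 bases, Fabp3 matched it at 67 and Fabp5 at 61. Over the whole coding sequence the pairs were between 55.4% (Fabp5 and Fabp7) and 71.2% (Fabp4 and Pmp2) identical. The longest run of identical bases between any pair of member transcripts was 23, again for Fabp4 and Pmp2, and it was 12 for Fabp4 and Fabp5. Processed pseudogenes are closer: 5 of them share a run of at least 50 identical bases with Fabp5 (the longest 179 bases, Gm6166) and 1 does with Fabp3 (Fabp3-ps1, 256 bases), while none does with Fabp4, Fabp7 or Pmp2. None of these pseudogenes is a row of the deposited table, so the counts of Fabp5 and Fabp3 carry an uncertainty from reads that a pseudogene could share. Fabp4, Fabp5 and Pmp2 lie in a cluster on chromosome 3, whereas Fabp3 is on chromosome 4 and Fabp7 on chromosome 10. Fabp3 overlaps Zcchc17 and Gm10570 on the opposite strand, and the library kit does not mark strand.

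The files held estimated counts per gene, with totals from 15650830 to 22406222 per library. Levels are given as CPM, the count scaled to the TMM-normalized library size, and comparisons between genes as CPM per kb of coding transcript. Of the libraries, ICH-Fabp4flox/flox mouse 1 had 16.3% of its counts in mitochondrial genes against 7.90% to 11.9% in the others. The ICH-Fabp4CKO mouse 1 library had 1 count over 4 Y-linked genes against 1302 to 2251 in the others. Choroid plexus and ependymal markers summed to 857 to 3103 CPM in Sham-Fabp4flox/flox and to no more than 96.4 CPM in any library of the other groups.

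Fabp5 (ENSMUSG00000027533) was the most abundant member in every group. Its level in Sham-Fabp4flox/flox was 90.7, 77.7 and 56.3 CPM in mice 1 to 3, and in Sham-Fabp4CKO it was 58.8, 56.6 and 52.6 CPM. In ICH-Fabp4flox/flox it was 374, 213 and 185 CPM, and in ICH-Fabp4CKO it was 332, 117 and 593 CPM. All 6 ICH mice lay above all 6 sham mice, and the ICH-Fabp4CKO mice spanned the range of the ICH-Fabp4flox/flox mice on both sides.

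Fabp7 (ENSMUSG00000019874), the brain-type member, was the most uniform within ICH-Fabp4flox/flox. Its level was 25.2, 27.6 and 16.2 CPM in Sham-Fabp4flox/flox and 19, 15.2 and 23.5 CPM in Sham-Fabp4CKO. In ICH-Fabp4flox/flox it was 74.2, 70.4 and 73.8 CPM, and in ICH-Fabp4CKO it was 21, 33.1 and 34.1 CPM. The ICH-Fabp4flox/flox mice stood above every other mouse, and the ICH-Fabp4CKO mice overlapped the sham mice.

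Fabp3 (ENSMUSG00000028773), the heart-type member, went the other way. It was at 41, 34.1 and 23.3 CPM in Sham-Fabp4flox/flox, and at 26.2, 26.7 and 27.3 CPM in Sham-Fabp4CKO. It was at 11.9, 17.6 and 21.4 CPM in ICH-Fabp4flox/flox, and at 14.5, 26.7 and 16 CPM in ICH-Fabp4CKO. The ICH-Fabp4flox/flox mice were all below the sham mice, and ICH-Fabp4CKO mouse 2 lay among the sham mice.

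Fabp4 (ENSMUSG00000062515), the deleted gene, was rare. It had 2, 1 and 2 counts in Sham-Fabp4flox/flox and 0 counts in each Sham-Fabp4CKO mouse, where 0 counts over the group allow up to 3 counts, or 0.0457 CPM. In ICH-Fabp4flox/flox it had 46, 63 and 24 counts (3.24, 3.93 and 1.28 CPM), and in ICH-Fabp4CKO it had 5, 3 and 10 counts (0.323, 0.16 and 0.547 CPM). Every ICH-Fabp4CKO mouse was below every ICH-Fabp4flox/flox mouse and above every sham mouse. Fabp4 reads thus remained in the knockout tissue after ICH. The Cre driver is directed at microglia, and the part of other cells in these reads was not tested.

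Pmp2 (ENSMUSG00000052468), the peripheral myelin member, was at the detection limit. It had 1 count in the Sham-Fabp4flox/flox libraries together, 0 in Sham-Fabp4CKO, 4 in ICH-Fabp4flox/flox (1, 3 and 0) and 1 in ICH-Fabp4CKO. The ratio of its counts between ICH-Fabp4CKO and ICH-Fabp4flox/flox was 0.234, with a counting interval from 0.00474 to 2.36, so no difference was detectable at this depth. Pmp2 did not pass the filter on low counts and was not tested.

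**Figure D1:**
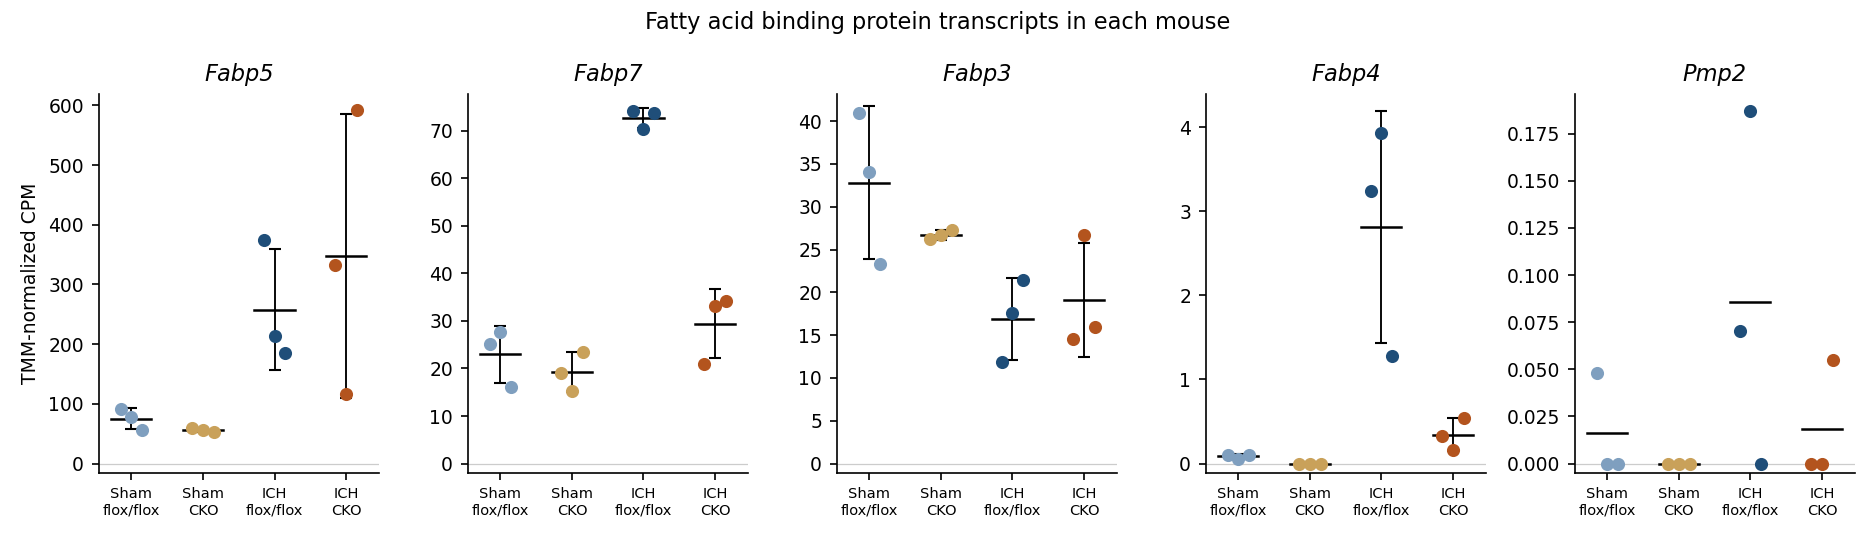
TMM-normalized CPM of the 5 members in each mouse, with 1 point per mouse, 4 groups of 3 on the x axis, and a line at the mean; bars show the SD, except for Pmp2. The Fabp7 points of ICH-Fabp4flox/flox (70.4 to 74.2 CPM) sit apart from all other groups, while the Fabp5 points of the ICH-Fabp4CKO mice range from 117 to 593 CPM.

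Per kb of transcript, the family as a whole summed to 144 ± 34.9 CPM per kb (SD, n = 3) in Sham-Fabp4flox/flox, 113 ± 3.85 in Sham-Fabp4CKO, 375 ± 99.7 in ICH-Fabp4flox/flox and 412 ± 237 in ICH-Fabp4CKO. In sham tissue of both genotypes the order of levels was Fabp5, Fabp3, Fabp7, Fabp4. The mean levels there were 75.9, 39.9, 28.6 and 0.0947 CPM per kb in Sham-Fabp4flox/flox, where the mice overlapped for Fabp3 and Fabp7, although Fabp3 was the higher of them within each of the 3 mice. In Sham-Fabp4CKO Fabp5 was at 56.7, Fabp3 at 32.5 and Fabp7 at 24 CPM per kb, with no overlap between neighbours down to Fabp7, and Fabp4 and Pmp2 both at 0.

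After ICH, Fabp7 stood above Fabp3. In ICH-Fabp4flox/flox the mean levels were 261 CPM per kb for Fabp5, 90.6 for Fabp7, 20.6 for Fabp3, 3.14 for Fabp4 and 0.0609 for Pmp2, with no overlap between neighbours. In ICH-Fabp4CKO they were 352, 36.6, 23.2, 0.383 and 0.0129 in the same order, and only the mice for Fabp7 and Fabp3 overlapped. Fabp7 was nevertheless above Fabp3 within each of these 3 mice.

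Fabp5 made up 52.7% ± 1.58 (SD, n = 3) of the members' summed CPM per kb in Sham-Fabp4flox/flox and 68.1% ± 8.42 in ICH-Fabp4flox/flox. Its share in the ICH-Fabp4CKO mice was 88.4%, 61.7% and 90.6%. The share of Fabp7 was 18.9%, 26.6% and 29.9% in ICH-Fabp4flox/flox and 6.87%, 21.4% and 6.39% in ICH-Fabp4CKO. Mouse 2 of ICH-Fabp4CKO differed from the other mice of its group in its makeup, with 16.8% of Fabp3 against 4.65% and 2.93%. Fabp4 reached at most 1.33% of the family in any mouse.

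**Figure D2:**
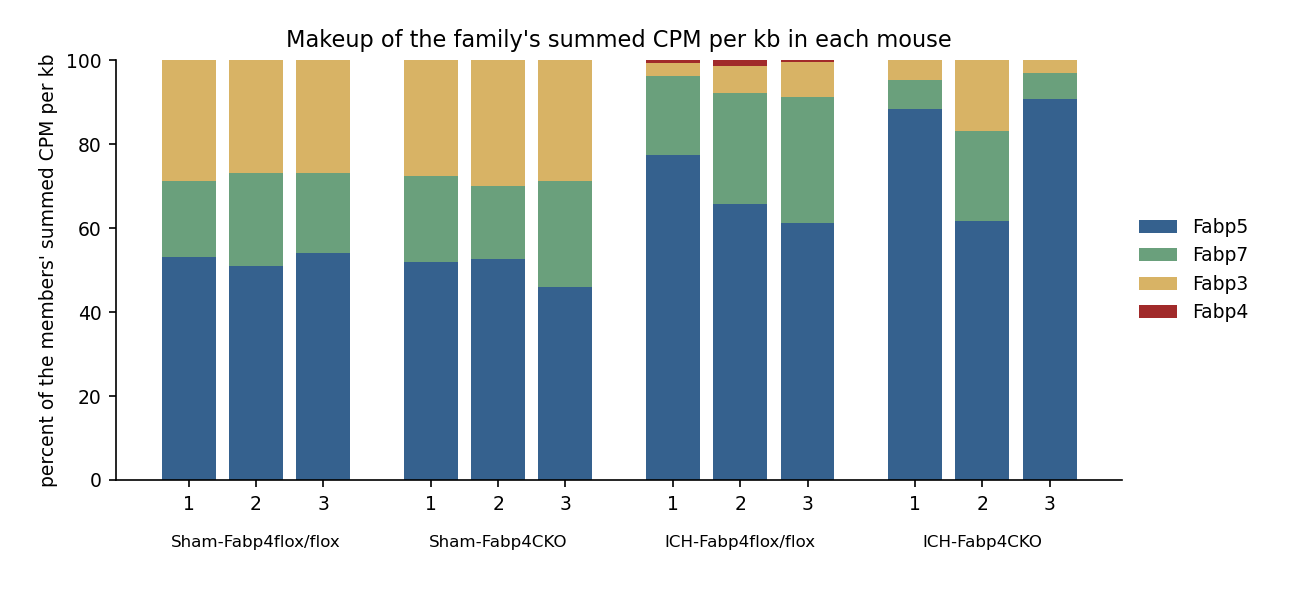
Stacked bars give each member's percent of the members' summed CPM per kb, 1 bar per mouse, with the mouse number and group on the x axis; Pmp2 is too low to see. Fabp3 takes from 26.8% to 29.9% of the bar in the sham mice and from 2.93% to 16.8% after ICH, and Fabp4 is visible only in the ICH-Fabp4flox/flox mice.

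The first comparison asked how the members responded to ICH in mice with intact Fabp4. Between ICH-Fabp4flox/flox and Sham-Fabp4flox/flox, Fabp4, Fabp5 and Fabp7 rose and Fabp3 fell, all 4 of the members that could be tested. Adjusted p-values here and in what follows are Benjamini-Hochberg values of the quasi-likelihood F-test of edgeR, unless another tool is named. With a threshold of 0.05, 45.6% of the 14719 tested genes were called in this comparison, 3862 of them higher and 2845 lower. The groups did not overlap for these 4 members, and they did not overlap for 61.8% of all tested genes.

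Fabp5 rose 3.33-fold, with a log2 fold change of 1.73 (SE 0.30, adjusted p = 0.00398). Fabp7 rose 3.08-fold, with a log2 fold change of 1.62 (SE 0.21, adjusted p = 0.00119). Fabp3 fell to a mean of 16.9 ± 4.77 from 32.8 ± 8.94 CPM (SD, n = 3), with a log2 fold change of -0.98 (SE 0.29, adjusted p = 0.0276). The call for Fabp3 is the least firm of them. Its adjusted p was 0.0764 without Sham-Fabp4flox/flox mouse 1, 0.0722 without mouse 2 of that group, 0.0538 without ICH-Fabp4flox/flox mouse 1 and 0.0758 without mouse 2 of that group, with log2 fold changes between -1.22 and -0.79 when any library was left out.

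Fabp4 rose as well, with a log2 fold change of 4.88 (SE 0.63, adjusted p = 0.00126), the largest change among the members. It passed the filter on low counts only through the ICH libraries, and a gene that passes in this way has to differ, so the count of members that changed rests on the other 3. From the summed counts, 133 after ICH and 5 in sham, the ratio was 31.6, with an interval from 13.2 to 99.1 that covers counting error only.

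Markers of several cell types moved in the same comparison, in which 45.6% of all genes were called. Of the 11 microglia markers measured, 10 rose, with summed levels from 473 to 581 CPM in Sham-Fabp4flox/flox and from 2014 to 2385 CPM in ICH-Fabp4flox/flox. All 12 endothelial markers rose, from summed levels of 352 to 406 CPM to levels of 881 to 2115 CPM. Of 12 monocyte and macrophage markers, 11 rose, from summed levels of 18 to 62 CPM to levels of 821 to 2168 CPM. Only 5 of these 12 passed the filter on low counts between the sham groups. The others entered the test only with the ICH libraries, so their rise follows in part from the filter. Neuronal genes went down: of 12 neuron markers, 8 fell, from summed levels of 6323 to 7357 CPM to levels of 2098 to 5117 CPM. Of 12 astrocyte markers, 4 rose and 1 fell, and their sum went from between 3881 and 4414 CPM to between 6602 and 8627 CPM. Their part in the members' changes was not tested.

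Set beside these sums, the picture depended on the list. Fabp3 per 1000 CPM of neuron markers was 6.49, 4.64 and 3.45 in Sham-Fabp4flox/flox and 5.67, 5.44 and 4.17 in ICH-Fabp4flox/flox, which overlap. Fabp5 per 1000 CPM of microglia markers was 156, 164 and 117 in sham and 157, 106 and 86.7 after ICH, which overlap too. On the scale of monocyte and macrophage markers Fabp5 was lower after ICH without overlap, at 127 to 226 against 1463 to 3339. That list summed to 18 to 62 CPM in sham and 821 to 2168 CPM after ICH, so any gene that rose by less is lower on this scale.

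Fabp7 per 1000 CPM of astrocyte markers was 5.71, 6.53 and 4.18 in sham and 11.2, 8.71 and 8.55 after ICH, with no overlap. The astrocyte genes did not move alike, and Aldh1l1 among them went from 55.3 to 64 CPM in sham to 159 to 193 CPM after ICH. Fabp7 also did not overlap on the scales of oligodendrocyte precursor markers (30.3 to 42.5 in sham, 64.4 to 84.3 after ICH) and of myelinating oligodendrocyte markers (1.63 to 1.74, and 2.43 to 3.65). On the scale of endothelial markers it overlapped, at 46.1 to 71.1 in sham and 35.1 to 83.7 after ICH. Fabp4, with 1 or 2 counts per sham library, did not overlap on the scales of endothelial markers (0.141 to 0.294 in sham, 1.45 to 3.01 after ICH) and of microglia markers (0.116 to 0.215, and 0.597 to 1.95). It overlapped on that of monocyte and macrophage markers, at 1.56 to 5.75 in sham and 1.49 to 2.34 after ICH. These ratios describe levels, were chosen after the values were seen, and carry no test.

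The second comparison asked the same of mice with the conditional deletion, ICH-Fabp4CKO against Sham-Fabp4CKO. Of the 3 members tested, Fabp5 rose, and Fabp7 and Fabp3 did not pass the threshold, where 35.6% of the 14737 tested genes did. Only for Fabp5 among the tested members did the groups not overlap, as was the case for 62.1% of all tested genes.

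Fabp5 rose 6.21-fold, from 56 ± 3.13 to 347 ± 238 CPM (SD, n = 3), with a log2 fold change of 2.64 (SE 0.56, adjusted p = 0.0188). Mouse 2 of ICH-Fabp4CKO, at 117 CPM, was the lowest of the ICH mice. The call ended when any 1 Sham-Fabp4CKO mouse was left out (adjusted p from 0.08 to 0.0814) or when ICH-Fabp4CKO mouse 1 was left out (adjusted p = 0.0623), with log2 fold changes from 1.98 to 3.05 over all libraries left out in turn. Fewer libraries leave fewer degrees of freedom in these fits.

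Fabp7 had a log2 fold change of 0.61 (95% interval 0.01 to 1.22, adjusted p = 0.0925), from 19.3 ± 4.16 to 29.4 ± 7.28 CPM (SD, n = 3). Fabp3 had a log2 fold change of -0.48 (95% interval -1.08 to 0.11, adjusted p = 0.149). Fabp3 passed the threshold once ICH-Fabp4CKO mouse 2 was left out, with a log2 fold change of -0.81 (adjusted p = 0.000526). Most genes passed in that fit, 5202 higher and 4897 lower of 14977 tested. Fabp4, with 0 counts in sham and 18 after ICH, was at least 7.51-fold higher after ICH, taking a floor of 3 counts over the sham group; the filter on low counts removed it from the test.

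Marker sums diverged within the ICH-Fabp4CKO group, and mouse 2 was the lowest for microglia and macrophages. Microglia markers summed to 3970, 2110 and 5654 CPM in mice 1 to 3, and monocyte and macrophage markers to 5275, 1074 and 8812 CPM. Neuron markers summed to 2845, 5842 and 2013 CPM in the same mice. Fabp5 followed the order of the first 2 lists, at 332, 117 and 593 CPM, and Fabp3 was highest where the neuron markers were highest. Fabp5 per 1000 CPM of microglia markers was 83.5, 55.6 and 105 in these mice, against 123, 104 and 111 in Sham-Fabp4CKO, so the groups overlapped on that scale. On the scale of monocyte and macrophage markers Fabp5 was at 62.9 to 109 after ICH and at 3168 to 3425 in Sham-Fabp4CKO, lower after ICH and without overlap. The list summed to only 15.4 to 17.9 CPM in Sham-Fabp4CKO, so a gene that rose by less than the list is lower here too. Fabp3 per 1000 CPM of neuron markers was higher after ICH without overlap, at 4.57 to 7.93 against 3.58 to 4.06, while Fabp7 overlapped on each of the 4 scales named for it.

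**Figure D3:**
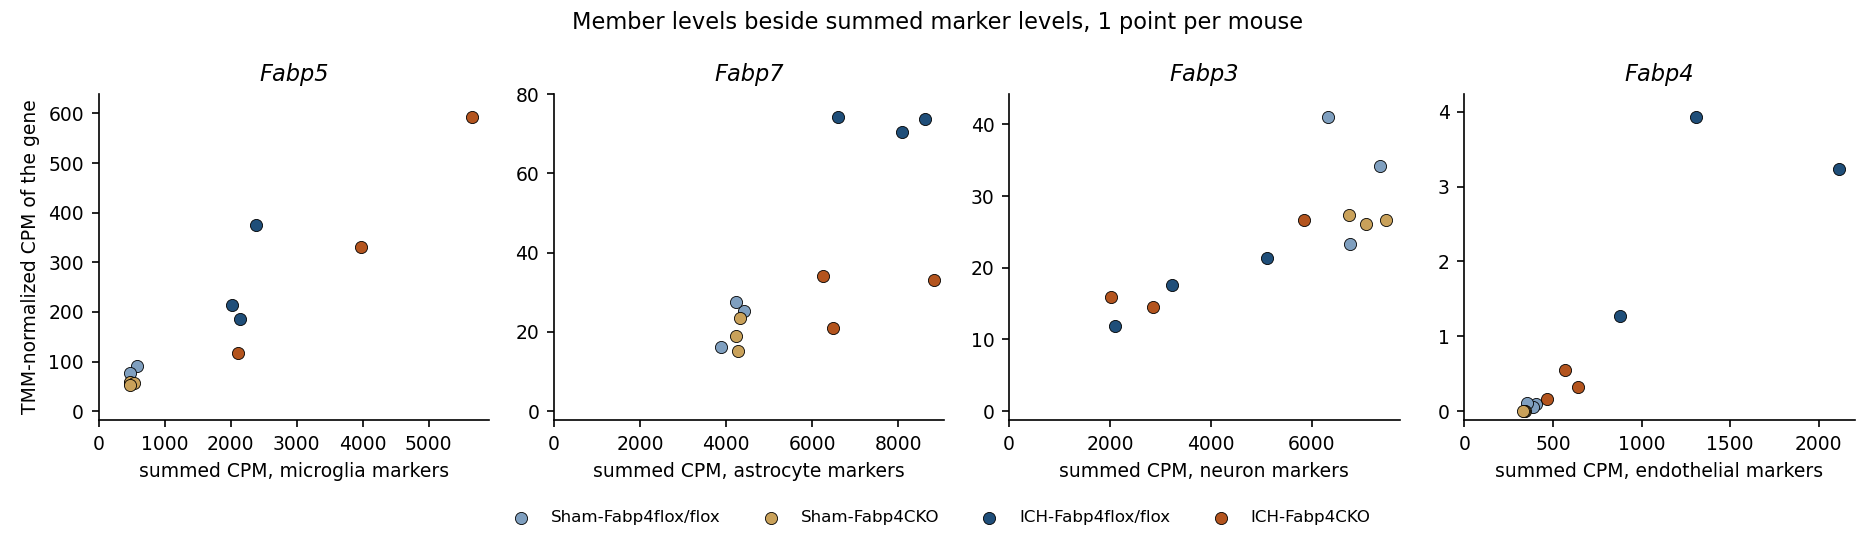
Each panel sets the CPM of a member (y axis) against the summed CPM of a marker list (x axis), 1 point per mouse and 1 colour per group. Fabp5 rises along with the microglia sum up to 593 CPM at a sum of 5654 CPM, whereas the Fabp7 points of ICH-Fabp4flox/flox lie above those of ICH-Fabp4CKO at astrocyte sums that overlap. Of the 12 astrocyte genes 6 were higher and 6 lower in ICH-Fabp4CKO, and Aldh1l1 was lower without overlap.

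The third comparison set the genotypes side by side after ICH, which asks whether other members differed where Fabp4 was deleted. Fabp7 was lower in ICH-Fabp4CKO than in ICH-Fabp4flox/flox in every mouse, Fabp4 was lower in every mouse, and Fabp5 and Fabp3 overlapped. No member passed the adjusted threshold, and neither did any other gene (0.00% of 14600 tested genes, edgeR). Fabp4 is the deleted gene and passed the filter on low counts only through ICH-Fabp4flox/flox, where it is high, so it is not counted here as a member that differed. Of the other 3 tested members, Fabp7 had an unadjusted p under 0.05, as 1776 genes or 12.2% of those tested did. Fabp7 was also without overlap between the groups, as were 19.8% of all tested genes.

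Fabp7 was 2.38-fold lower, at 29.4 ± 7.28 CPM in ICH-Fabp4CKO and 72.8 ± 2.09 CPM in ICH-Fabp4flox/flox (SD, n = 3). The log2 fold change was -1.25 (SE 0.22, 95% interval -1.78 to -0.73, adjusted p = 0.269). With DESeq2 the adjusted p of Fabp7 was 0.000175, and with all 12 libraries in a single edgeR fit it was 0.0318; these fits called 578 and 362 genes. Without ICH-Fabp4CKO mouse 1, the library with next to no Y-linked counts and the lowest Fabp7, the log2 fold change was -1.06 (adjusted p = 0.633).

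For Fabp4 itself, the summed counts were 18 in ICH-Fabp4CKO and 133 in ICH-Fabp4flox/flox, a ratio of 0.126 with a counting interval from 0.0727 to 0.208. The fitted log2 fold change was -2.94 (SE 0.62, adjusted p = 0.295). Since the filter admitted Fabp4 through its high group only, this fit describes the size of the difference and its p is no independent test of it, which holds for DESeq2 and for the fit of all 12 libraries as well.

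Fabp5, the macrophage and epidermal member, had a log2 fold change of 0.50 (SE 0.58, adjusted p = 0.756), and its 95% interval, from -0.89 to 1.88, takes in both a lower and a higher level. The sign rested on ICH-Fabp4CKO mouse 3, without which the log2 fold change was -0.13. Fabp3 had a log2 fold change of 0.21 (95% interval -0.59 to 1.02, adjusted p = 0.824), which became -0.11 without ICH-Fabp4CKO mouse 2. Neither interval shows that Fabp5 or Fabp3 was at the same level in the genotypes.

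**Figure D4:**
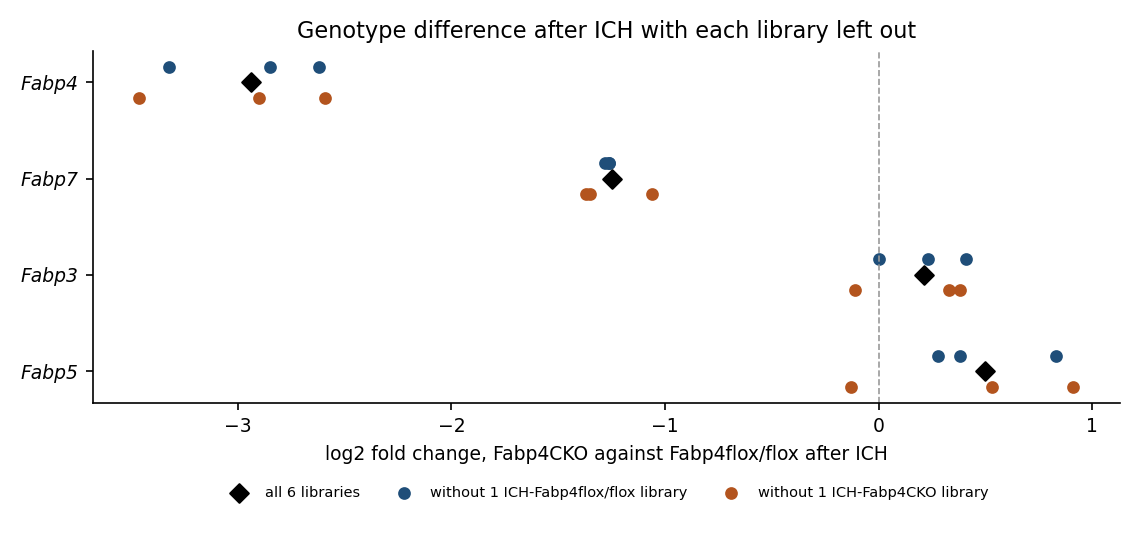
Log2 fold change of ICH-Fabp4CKO against ICH-Fabp4flox/flox (x axis) for 4 members, with all 6 libraries (diamonds) and with each library left out in turn (circles, coloured by the group that lost a library). Fabp4 stays between -3.46 and -2.59 and Fabp7 between -1.37 and -1.06, while the points of Fabp3 and Fabp5 lie on both sides of 0.

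Marker lists differed with genotype after ICH in both directions, and no gene of them passed the adjusted threshold. All 8 neutrophil markers that could be tested, of 12, were higher in ICH-Fabp4CKO (median log2 fold change 2.79, against 0.06 over all genes), 6 of them at an unadjusted p under 0.05. For ICH in Fabp4flox/flox only 6 of the 12 were tested. Some of the 8 thus passed the filter on low counts only with the ICH-Fabp4CKO libraries, where they are high. For these, a higher value there follows in part from the filter. The summed levels of all 12, 229, 74.5 and 366 CPM against 97.5, 61.5 and 53.6 CPM in ICH-Fabp4flox/flox, overlapped through mouse 2 of ICH-Fabp4CKO. Of 12 monocyte and macrophage markers 9 were higher (median 0.68), with summed levels of 1074 to 8812 CPM against 821 to 2168 CPM, and of 11 microglia markers 8 were higher (median 0.33). Counting both directions, an unadjusted p under 0.05 was seen for 2 of the 12 monocyte and macrophage markers and 4 of the 11 microglia markers.

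Some other lists were lower in all their genes or in sum. All 12 endothelial markers were lower in ICH-Fabp4CKO, with log2 fold changes from -2.15 to -0.69 and summed levels of 465 to 640 CPM against 881 to 2115 CPM in ICH-Fabp4flox/flox. All 12 markers of myelinating oligodendrocytes were lower too, with log2 fold changes from -1.65 to -0.71 and summed levels of 7698 to 12406 CPM against 20192 to 30569 CPM. In each of these lists 11 of the 12 markers had an unadjusted p under 0.05, as 12.2% of all tested genes did. Oligodendrocyte precursor markers summed to 677 to 771 CPM against 875 to 1094 CPM. Of these 10 genes, however, 6 were lower and 4 higher (median -0.25), and 3 of the 10 had an unadjusted p under 0.05. Astrocyte markers overlapped in sum (6255 to 8826 against 6602 to 8627 CPM), and 6 of the 12 were higher and 6 lower (median -0.08, 1 of them at an unadjusted p under 0.05). The part of any of these lists in the values of Fabp7, Fabp4 or Fabp5 was not tested.

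Set against astrocyte markers, Fabp7 was at 3.23, 3.76 and 5.45 per 1000 CPM of the list in ICH-Fabp4CKO and at 11.2, 8.71 and 8.55 in ICH-Fabp4flox/flox, without overlap. This holds for the sum of the list, of which 6 genes were higher and 6 lower in ICH-Fabp4CKO. Aldh1l1, among the lower, was at 75.9 to 107 CPM against 159 to 193 CPM, without overlap. Against oligodendrocyte precursor markers, again per 1000 CPM, Fabp7 was at 27.3, 49 and 44.6 against 78.8, 64.4 and 84.3, also without overlap. With endothelial markers (32.9, 71.3 and 59.7 against 35.1, 53.9 and 83.7) and with myelinating oligodendrocyte markers (1.77, 2.67 and 4.43 against 2.43, 2.65 and 3.65) the groups overlapped.

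Fabp5 overlapped on the scale of microglia markers, at 55.6 to 105 in ICH-Fabp4CKO and 86.7 to 157 in ICH-Fabp4flox/flox, and did not on that of monocyte and macrophage markers, where it was lower in ICH-Fabp4CKO (62.9 to 109 against 127 to 226). Fabp3 overlapped on the scale of neuron markers, at 4.57 to 7.93 against 4.17 to 5.67.

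For Fabp4 the ICH groups of the genotypes stayed apart on each of 3 scales. Per 1000 CPM of endothelial markers it was at 0.505, 0.344 and 0.958 in ICH-Fabp4CKO and at 1.53, 3.01 and 1.45 in ICH-Fabp4flox/flox. Per 1000 CPM of microglia markers it was at 0.0814, 0.0758 and 0.0967 against 1.36, 1.95 and 0.597. For monocyte and macrophage markers it was at 0.0613, 0.149 and 0.0621 against 1.49, 2.34 and 1.55. Adipocyte markers summed to 0.219 to 0.959 CPM in ICH-Fabp4CKO and to 0.249 to 0.493 CPM in ICH-Fabp4flox/flox, with Adipoq at 0 to 0.274 CPM in the 12 libraries. Fabp4 was itself at only 0.16 to 0.547 CPM in ICH-Fabp4CKO, and the part of adipocytes in its reads was not tested.

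The fourth comparison set the genotypes side by side in sham tissue. None of the 3 tested members passed the adjusted threshold, which 0.111% of 14395 genes did, all 16 of them lower in Sham-Fabp4CKO and among them the choroid plexus gene Ttr, at 14.2 to 19 CPM against 783 to 2929 CPM. At an unadjusted p under 0.05, 1 member, Fabp5, stood among 10.2% of the genes tested. The mice overlapped for each tested member, and did not overlap for 14.8% of all tested genes.

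Fabp5 had a log2 fold change of -0.41 (95% interval -0.79 to -0.03, adjusted p = 0.484), Fabp3 of -0.28 (95% interval -0.72 to 0.15, adjusted p = 0.558) and Fabp7 of -0.24 (95% interval -0.77 to 0.29, adjusted p = 0.658). Sham-Fabp4flox/flox mouse 3 had the lowest Fabp5, Fabp3 and Fabp7 of its group and the highest choroid plexus sum. Without it, Fabp5 was lower in Sham-Fabp4CKO with a log2 fold change of -0.57 (adjusted p = 0.00432) and Fabp3 with a log2 fold change of -0.48 (adjusted p = 0.0123). That fit called many genes at once, 1531 higher and 1331 lower of 14621 tested, where the fit with all 6 libraries called 16.

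The interaction of surgery and genotype asked directly whether a member's response to ICH differed between genotypes. No member passed the adjusted threshold, which 0.0199% of the 15089 tested genes did, namely Folr1, Tbx1 and Ttr. At an unadjusted p under 0.05 Fabp7 was the only member, where 9.94% of the genes were. Its interaction was -1.05 on the log2 scale (SE 0.34, 95% interval -1.79 to -0.31, adjusted p = 0.348), and between -1.20 and -0.84 with any library left out. The interaction of Fabp5 was 0.85 (95% interval -0.59 to 2.30, adjusted p = 0.7) and that of Fabp3 was 0.46 (95% interval -0.41 to 1.34, adjusted p = 0.726). The fitted interaction of Fabp4 is not given, as Sham-Fabp4CKO held no counts.

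In an additive fit over both surgeries, genotype gave a log2 fold change of -0.79 for Fabp7 (SE 0.23, adjusted p = 0.214), 0.01 for Fabp5 (95% interval -0.74 to 0.75) and -0.07 for Fabp3 (95% interval -0.51 to 0.37). With DESeq2 the adjusted p of Fabp7 was 0.045, in a fit that called 137 genes higher and 272 lower of 15089. None of these 3 members passed with edgeR, where 0.0199% of the genes did so, and Fabp7 alone among them had an unadjusted p under 0.05, as did 14.9% of the genes. The fitted value of Fabp4 is not given, since ICH-Fabp4flox/flox alone carried it past the filter on low counts.

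The wider family of intracellular lipid binding proteins holds the other Fabp genes and carriers of retinoids. Fabp6, Fabp9 and Fabp12 had 0 counts in all libraries, Fabp2 and Rbp7 had at most 2, and Fabp1, the liver member, had 7 counts in Sham-Fabp4flox/flox (6 of them in mouse 1), 2 in Sham-Fabp4CKO, 2 in ICH-Fabp4flox/flox and 0 in ICH-Fabp4CKO. Rbp2, the intestinal retinol carrier, reached 7 counts in 1 Sham-Fabp4CKO mouse and was otherwise at 4 or fewer. Crabp1 and Crabp2 passed the filter on low counts and were tested.

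Crabp2, which carries retinoic acid towards its nuclear receptor, was at 5.14, 2.74 and 3.45 CPM in ICH-Fabp4flox/flox and at 1.81, 1.12 and 1.69 CPM in ICH-Fabp4CKO, without overlap (log2 fold change -1.23, adjusted p = 0.339 with edgeR, 0.0489 with DESeq2 and 0.109 with all 12 libraries in a single edgeR fit). Its log2 fold change with ICH in Fabp4flox/flox was 1.07 (adjusted p = 0.0559, and 0.0375 and 0.0427 in those alternatives). Crabp1, the other retinoic acid carrier, fell with ICH in Fabp4CKO (log2 fold change -1.09, adjusted p = 0.0399, and 0.00361 with DESeq2), a call that was lost with all 12 libraries in a single fit (adjusted p = 0.0958). Its log2 fold change was -0.19 in Fabp4flox/flox (adjusted p = 0.804).

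**Figure D5:**
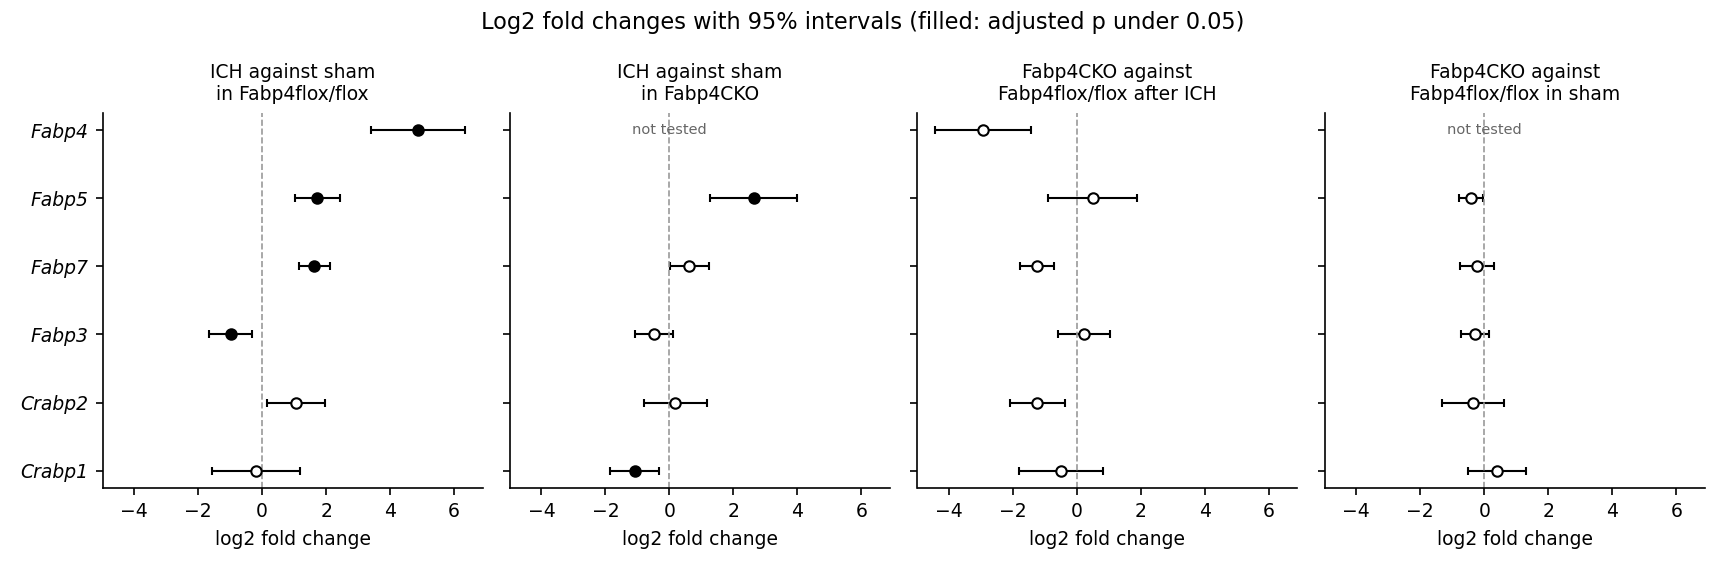
Log2 fold changes (x axis) with 95% intervals for the 4 tested members and the retinoic acid carriers Crabp1 and Crabp2 in the 4 comparisons, with filled points where the adjusted p (edgeR) was under 0.05. In the genotype comparison after ICH the intervals of Fabp4, Fabp7 and Crabp2 lie below 0 without passing the adjusted threshold, and those of Fabp5 and Fabp3 include 0.

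The genes that hand fatty acids to these carriers, store them or burn them were taken as lists, to be read beside the 45.6% of all genes that were called for ICH in Fabp4flox/flox and the 35.6% in Fabp4CKO. Of 18 genes of fatty acid uptake and activation, 15 were tested for ICH in Fabp4flox/flox, and 6 rose and 5 fell (median log2 fold change -0.32, against 0.02 over all genes), while of 16 tested in Fabp4CKO 6 rose and 1 fell. Cd36, the fatty acid translocase, was at 55 ± 23.4 CPM after ICH and 2.74 ± 0.959 CPM in sham (log2 fold change 4.27, adjusted p = 0.000479). Lpl, lipoprotein lipase, had a log2 fold change of 2.35 (adjusted p = 0.003), and Mfsd2a, the carrier of lysolipids at the blood-brain barrier, of 1.11 (adjusted p = 0.0016).

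After ICH Cd36 ranged widely in ICH-Fabp4CKO, at 388 ± 441 CPM (SD, n = 3), so its difference between genotypes was not resolved (log2 fold change 2.89, SE 1.31, adjusted p = 0.438). Mfsd2a was at 22.6 ± 3.69 CPM in ICH-Fabp4CKO and 48 ± 8.61 CPM in ICH-Fabp4flox/flox (log2 fold change -1.03, adjusted p = 0.295). None of the 16 tested genes of this list passed between genotypes.

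Of 20 lipid droplet genes, 17 were tested, and 7 rose and 3 fell with ICH in Fabp4flox/flox (median 0.14). Plin2, the coat protein of lipid droplets in most cells, had a log2 fold change of 4.88 (adjusted p = 0.000735), Soat1, which esterifies cholesterol, of 1.47 (adjusted p = 0.00123), and Plin3, another coat protein, of 1.10 (adjusted p = 0.0025). In ICH-Fabp4CKO the list had 5 genes higher and 1 lower than in sham, and the droplet sum was 1342, 684 and 2520 CPM in mice 1 to 3, in the same order as Fabp5. None of 16 tested genes passed between genotypes after ICH (median 0.16, against 0.06 over all genes).

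For fatty acid oxidation, of 19 genes tested 13 rose and 1 fell with ICH in Fabp4flox/flox (median 0.67), and 9 rose and 0 fell in Fabp4CKO (median 0.66). Cpt1a, the gate of long-chain fatty acids into mitochondria, had a log2 fold change of 1.23 (adjusted p = 0.000881) in Fabp4flox/flox, Acadl, a dehydrogenase of beta-oxidation, of 1.26 (adjusted p = 0.00109), and Ucp2, a mitochondrial carrier, of 3.03 (adjusted p = 0.00125). Between genotypes after ICH 0 of 19 passed (median 0.10).

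Of 16 genes of fatty acid synthesis and desaturation, 2 rose and 3 fell with ICH in Fabp4flox/flox (median -0.10), and the same numbers did in Fabp4CKO, which is below the share of all genes called. Elovl1, an elongase of very long saturated chains, had a log2 fold change of 1.52 (adjusted p = 0.00368) in Fabp4flox/flox, Elovl4 of -1.28 (adjusted p = 0.00828) and Elovl6 of -0.56 (adjusted p = 0.0234). Of 20 nuclear receptors and transcription factors tied to Fabp genes, 10 rose and 0 fell with ICH in Fabp4flox/flox (median 0.79), and 12 rose and 1 fell in Fabp4CKO. For Fabp4flox/flox that count is near the share of all genes. Cebpa, a factor of adipocyte and myeloid genes, had a log2 fold change of 2.66 (adjusted p = 0.000514) in Fabp4flox/flox, Nfe2l2, the factor of the oxidative stress response, of 1.95 (adjusted p = 0.000617), and Bach1, a heme-sensitive repressor, of 1.29 (adjusted p = 0.00164). None of the tested genes of either list passed between genotypes after ICH.

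In the chromosome 3 cluster around Fabp4, the neighbours were described as well, chosen after the values were seen. Fabp9, Fabp12, Gm9833, Gm37389 and Gm38303 had 0 counts in all libraries, and Slc10a5 had at most 4. Impa1, which flanks the cluster, had a log2 fold change of 0.07 (SE 0.15, adjusted p = 0.881) between genotypes after ICH and -0.07 (SE 0.07, adjusted p = 0.688) in sham. Pag1, on the other side next to Fabp5, had 0.67 (SE 0.18, adjusted p = 0.314) and 0.01 (SE 0.09, adjusted p = 0.96). Zfand1 had -0.15 (SE 0.17, adjusted p = 0.738) and -0.24 (SE 0.12, adjusted p = 0.502). Zcchc17, which overlaps Fabp3 on the other strand, had 634 to 1075 counts per library and a log2 fold change of 0.17 with ICH in Fabp4flox/flox (adjusted p = 0.27), where Fabp3 fell.

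The genes whose log2 CPM followed each member most closely over the 12 libraries were looked up among 15089 genes. For Fabp5 they were Cdc42, Pnpla2 and Cndp2, each with Pearson's r of 0.99, and 0.97 to 0.98 for the deviations from group means. Pnpla2 is the main triglyceride lipase of lipid droplets, and Cdc42 is a small GTPase of the actin skeleton. For Fabp3 they were the neuronal genes Kctd4 and Nrg3 and the potassium channel subunit gene Kcnab2, with r of 0.97 to 0.98 and 0.94 to 0.98 for the deviations. For Fabp4 they were Adgrl4, an endothelial adhesion receptor (r = 0.99), C1qtnf5 and Fam83d (r = 0.98 each), with 0.87, 0.88 and 0.67 for the deviations.

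For Fabp7 they were AU021092, Hnrnpdl and Rom1, with r of 0.95 to 0.96, and the r of the deviations was lower, at 0.61, 0.73 and 0.40. The 12 libraries share the differences between groups, and the r of the deviations from group means leaves those out. The genes named for the 4 members had a Spearman's rho of 0.88 to 0.97 with their member. They were not the 3 highest by rho, however: 0 of the 3 genes were the same for each of the 4 members.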

How the data were processed

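The values deposited by the authors are estimated counts per gene, not normalized, from poly(A)-selected brain RNA of 12 libraries; reads were aligned and assigned to genes before deposit. Per the labels' processing notes the tools were Bowtie2 2.2.8, HISAT2, StringTie 1.3.1 and DESeq2. The genome build and the counting step are not given in the sources used here, so no gene coordinates are printed. Counts were rounded to whole numbers.

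Each comparison of 2 groups was fitted on its 6 libraries, and the interaction and the additive fit over both surgeries on all 12, with edgeR 4.0.16 in R 4.3.3 (TMM, filterByExpr at its minimum count of 10 and total of 15, quasi-likelihood F-test, Benjamini-Hochberg adjustment over all tested genes, threshold 0.05). Intervals of 95% use the fit's degrees of freedom, and log2 CPM for likeness used a prior count of 2. Ratios of summed counts have exact binomial intervals, and the floor is 3 counts over a group; both cover counting error only. Tables and figures used Python 3.11.15, scipy 1.17.1 and matplotlib 3.10.9. Transcript lengths and sequences came from GENCODE vM21 (GRCm38).

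The fits were tested on simulated counts with known changes. For genotype after ICH, 1 of 100 genes with a true log2 change of 1 was called, and 56 of 100 at 2. For the interaction these numbers were 6 and 58, and for ICH in Fabp4flox/flox 19 and 84. Unchanged genes called were 2, 3 and 5 in the same order. A gene that did not pass can thus still have changed by about such an amount. The simulations held 100 changed genes of each size among 14600 to 15089 genes. For ICH in Fabp4flox/flox 45.6% of genes were called in the data, so 19 and 84 do not carry over to that comparison. An exact permutation test of 3 against 3 cannot give a p below 0.1, so none is given.

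All 5 members are described. Genes of the other lists are named if they had over 3 counts in a library (other family members) or were among the 3 smallest p-values past the threshold for ICH in Fabp4flox/flox. Genes most like a member are the 3 with the highest Pearson's r. Genes said to be chosen after their values were seen lie outside this rule. Some genes of the lists are not reported here. Members and lists were chosen with earlier results of these data known. Alternatives were RLE size factors, total counts without TMM, DESeq2 1.42.0, no filter on low counts, a stricter filter of 10 counts in each library, a block for the replicate number, a single fit of all 12 libraries, and leaving out each library in turn.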

Additional observations from a re-analysis of the deposited data

How the results depend on the processing

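The direction of Fabp4, Fabp7 and Fabp5 for ICH against sham, and of Fabp4 and Fabp7 between genotypes after ICH, was kept under each setting that could be fitted. With all libraries kept, 133 member values held their direction and side of the threshold, 6 newly passed it, 1 no longer did and 2 changed sign; with a library left out these numbers were 158, 5, 8 and 9. The number of members past the adjusted threshold moved from 0 to 2 for genotype after ICH with DESeq2 and with all 12 libraries in a single fit, and from 0 to 2 over both surgeries with DESeq2, in each case Fabp7 and Fabp4, of which Fabp4 had passed the filter only through ICH-Fabp4flox/flox. For ICH against sham in Fabp4CKO it moved from 1 to 2 without the filter on low counts and with all 12 libraries, since Fabp4 was then tested. With a library left out it was 3 to 4 for ICH in Fabp4flox/flox, 0 to 2 for ICH in Fabp4CKO, 0 for genotype after ICH and for the interaction, 0 to 2 for genotype in sham and 0 to 1 over both surgeries, where the 1 was Fabp4. The call on all genes moved far more: for genotype after ICH from 0 genes to 578 with DESeq2 and 362 with all 12 libraries, and for genotype in sham from 16 to 150 with DESeq2, 2 with at least 10 counts in every library, 2862 without Sham-Fabp4flox/flox mouse 3 and 0 without mouse 2 of that group or any Sham-Fabp4CKO mouse. For ICH in Fabp4CKO, 5248 genes became 629 to 1583 without a Sham-Fabp4CKO mouse or ICH-Fabp4CKO mouse 1, 3041 without mouse 3 and 10099 without mouse 2, and for ICH in Fabp4flox/flox 6707 became 4181 without ICH-Fabp4flox/flox mouse 2 and 4340 without Sham-Fabp4flox/flox mouse 2. For the interaction it went from 3 to 266 with DESeq2 and to between 0 and 371 with a library left out (371 without ICH-Fabp4CKO mouse 2), and over both surgeries from 3 to 409 with DESeq2 and to between 1 and 156 (156 without Sham-Fabp4flox/flox mouse 3). The value of Fabp5 over both surgeries, 0.01, turned to -0.01 without TMM and to -0.03 with the replicate block, and lay between -0.32 and 0.16 with a library left out. Between genotypes after ICH, Fabp5 lay between -0.13 and 0.91 and Fabp3 between -0.11 and 0.41 with a library left out, and over both surgeries Fabp3 lay between -0.23 and 0.05. The mean of Fabp7 in ICH-Fabp4flox/flox was 72.8 CPM, 70.3 CPM with RLE size factors and 70.5 CPM without TMM; that of Fabp3 in Sham-Fabp4CKO was 26.7 CPM and 27.4 CPM without TMM. The causes were not tested. Replicate numbers did not pair the samples, as the correlations of deviations of same-numbered mice were from -0.575 to 0.311, and in 3 of the 4 comparisons of 2 groups at least 1 of them lay below the mean of the other pairs. With the replicate number as a block, Fabp3 for ICH in Fabp4flox/flox had an adjusted p of 0.0511 in place of 0.0276, no other member's call changed, and the calls for the interaction and over both surgeries each went from 3 genes to 1. Depth limits Fabp4 in sham tissue and Pmp2 throughout.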
